A study of Mus musculus with 9 samples.

Results

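The mitochondrial ribosomal protein genes are the nuclear genes whose symbols begin with Mrpl or Mrps and a digit. Of the 55421 genes in the deposited count table, 78 carried such a symbol and were annotated as protein-coding, 49 of them named for the large subunit (Mrpl) and 29 for the small subunit (Mrps). By known structures of the mammalian particle, 51 of the 78 encode large-subunit proteins, among them Mrps30 and Mrps18a in spite of their names, and 26 encode small-subunit proteins. The remaining gene, Mrps36, is now known to encode a component of the 2-oxoglutarate dehydrogenase complex and not of the ribosome, and was kept because the symbol rule takes it. The genes lay on 17 chromosomes.

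The libraries came from mouse hippocampal cells, dissociated and sorted for tdTomato, a red fluorescent protein that the mice express in neurons. The 3 groups held 3 libraries each, and each library was taken as 1 mouse. The first was a conditional knockout of Tmsb4x, the gene of the actin-monomer-binding peptide thymosin beta 4, after mild traumatic brain injury (mTBI), given as 1 mild controlled cortical impact. The second was wild-type mice after the same injury, and the third was wild-type mice after a sham operation without the impact. The labels used here name neither the Cre driver, the deleted part of Tmsb4x, the sex, the age nor the time after injury. No knockout sham group was analysed here, so by the labels genotype was compared only after injury.

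Mitochondria keep their own ribosomes, which make the few respiratory-chain and ATP synthase subunits encoded in mitochondrial DNA. The ribosomal RNAs of these ribosomes come from mitochondrial DNA, whereas every protein is made from nuclear genes in the cytosol and imported. Neurons rely heavily on oxidative phosphorylation, and inherited defects of several of these proteins cause brain, heart or liver disease in humans.

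Totals were 36452443 to 39590872 counts per library. Tmsb4x, the targeted gene, stood at 1.83, 2.79 and 2.77 CPM (counts brought to the same total in every library) in knockout mTBI, at 900, 553 and 297 CPM in wild-type mTBI, and at 2.73, 1.68 and 2.23 CPM in those with the label of wild-type sham. These sham-labelled libraries thus held the targeted gene at the knockout level, which goes against their wild-type label, and every direction against sham below depends on that label. Wild-type mTBI may therefore differ from them in genotype as well as in injury, and these cannot be told apart here. Below, a change after injury means the change from the sham-labelled libraries to wild-type mTBI. The sham-labelled libraries were also closer to one another than the others, with a biological coefficient of variation of 3.27%, against 18.7% in knockout mTBI and 19.7% in wild-type mTBI. Xist was abundant in 1 library only, wild-type mTBI replicate 3 (835 CPM), so the groups were not matched for sex. Markers of neurons summed to 8582 to 10110 CPM, but those of astrocytes (3486 to 4483 CPM) and oligodendrocytes (4550 to 8326 CPM) were also high in sorted cells. The 6 choroid plexus markers summed to 53.9, 3665 and 2933 CPM in knockout mTBI, to 3153, 4300 and 4353 CPM in wild-type mTBI, and to 44.5 to 45.3 CPM in the sham-labelled libraries. In such bulk libraries, fewer cells of a type and less RNA per cell cannot be told apart.

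Of the 78 genes, 77 passed the filter on low counts. Levels of the tested genes ranged from 5.43 CPM for Mrps18c to 58.4 CPM for Mrpl3, with a median of 22.4 CPM over the 9 libraries. Scaled to exon length (RPKM, CPM divided by the length of the merged exons in kilobases), the level spanned 27.8-fold around a median of 8.78 RPKM. The highest was Mrpl41 at 39.5 ± 8.08 RPKM (SD, n = 9 libraries), a large-subunit protein found only in mitochondrial ribosomes. Mrps21, a small-subunit protein with a bacterial counterpart, followed at 38.2 ± 7.64 RPKM, and its SD overlapped that of Mrpl41. Mrpl12, which builds the stalk that recruits translation factors and has been reported to bind mitochondrial RNA polymerase, stood at 25.8 ± 4.24 RPKM. Mrpl2, near the peptidyl transferase centre, stood at 22.7 ± 2.62 RPKM, and Mrpl10, the base of the stalk, at 21.8 ± 2.28 RPKM, so these 3 overlapped within their SDs.

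**Figure D1:**
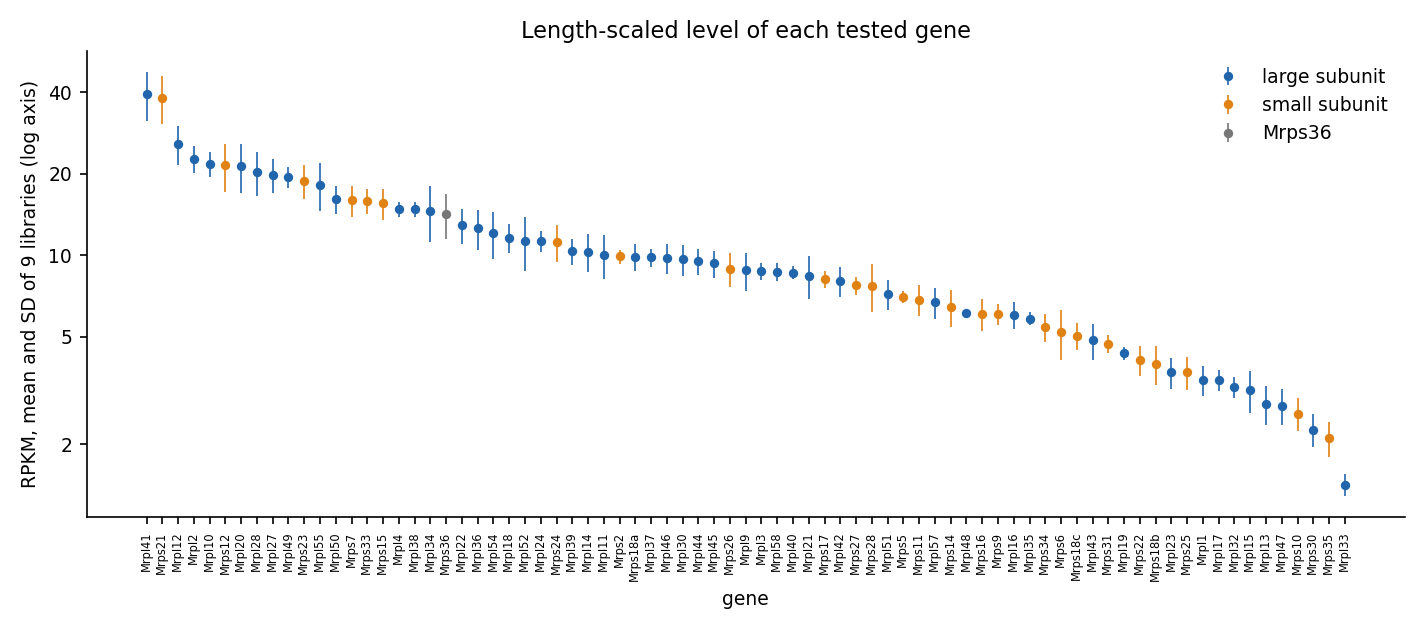
Length-scaled level of each of the 77 tested genes, in RPKM on a log axis, as mean and SD over 9 libraries, ordered from high to low and coloured by subunit. Mrpl41 and Mrps21 stand highest, at 39.5 and 38.2 RPKM, Mrpl33 stands lowest at 1.42 RPKM, and large- and small-subunit genes are interleaved over the whole range.

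At the low end of the tested genes stood Mrpl33 at 1.42 ± 0.130 RPKM, a large-subunit protein with a bacterial counterpart. Next came the small-subunit genes Mrps35 (2.12 ± 0.316 RPKM) and Mrps10 (2.60 ± 0.356 RPKM) and the large-subunit genes Mrps30 (2.27 ± 0.313 RPKM) and Mrpl47 (2.77 ± 0.421 RPKM), whose SDs overlapped. All genes were measured in the same libraries and share part of this spread, so overlap of SDs does not test a difference between genes. Merged exon length counts every annotated exon, so RPKM understates a gene whose long isoforms are little used. The gene that was not tested was Mrpl53, with 0 to 4 counts in a library. Of its exon length, 88.0% overlapped other annotated genes, and by the counting program's default, reads in shared exons went to no gene, so its level could not be measured. Exons of Mrps34 (77.8%) and Mrps25 (69.8%) were also shared over most of their length, and their values carry that limit. Mrps25 stood at 21.8, 26.6 and 20.3 CPM in knockout mTBI libraries, 30.8, 27.3 and 23.2 CPM in injured wild-type libraries and 22.1, 22.4 and 24.3 CPM in sham-labelled libraries, so the groups overlapped.

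The 3 homologues of bacterial protein S18 illustrate how names and places differ. Mrps18a, whose product sits in the large subunit, had 36.7, 34.1 and 35.5 CPM in knockout mTBI libraries, 47.1, 36.6 and 33.2 CPM in wild-type mTBI libraries and 34.8, 36.2 and 34.1 CPM in sham-labelled libraries. Mrps18c, which takes the small-subunit site of the bacterial protein, had 5.41, 4.96 and 6.06 CPM in knockout mTBI libraries, 6.67, 5.02 and 5.43 CPM in injured wild-type libraries, and 5.61, 5.18 and 4.55 CPM in sham-labelled libraries. Mrps18b, also a small-subunit protein, had 9.60, 6.16 and 10.2 CPM in knockout mTBI libraries, 8.26, 7.72 and 8.39 CPM in injured wild-type libraries and 6.54, 9.62 and 8.19 CPM in sham-labelled libraries. The groups overlapped for all 3, and the spread of Mrps18b lay within the knockout and sham-labelled groups, with 30.5% of its exon length shared with an antisense gene. Strand was ignored in the counting, so reads in that shared stretch were, by the program's default, assigned to neither gene.

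Promoter sequence was a further property that the choice by symbol did not use. Nuclear genes of mitochondrial proteins often carry sites for NRF1, for the ETS factor GABPA (also called NRF2) and for YY1 near their start. RefSeq windows from 250 bases before to 50 bases after the start, on GRCm38.p6, were found for 69 of the 78 genes. On either strand, the NRF1 letters (GCGCA, any 1 base, then GCGC) were present in 13 of the 69 genes (18.8%), against 5.19% of 27025 genes with a window. The ETS letters CCGGAAG were present in 26 (37.7%), against 9.93% of all genes, and the YY1 letters AAGATGGCG in 8 (11.6%), against 1.64%. At least 1 of the 3 was present in 41 (59.4%), against 15.1% of all genes. The genes with a window were not limited to protein-coding or expressed genes, as the members nearly all were, so the 2 sets are unlike. A match is a run of letters and does not show that the factor binds.

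The windows of 3 genes with unadjusted p under 0.05 after injury (below) show one example of each motif, written 5′ to 3′ on the gene's strand with the motif letters in capitals. Mrps26 (chr2:130563507-130563806, plus strand) holds overlapping NRF1 matches beside an ETS match on the opposite strand. Mrpl21 (chr19:3282792-3283091, plus strand) holds an ETS match on the opposite strand, and Mrps24 (chr11:5707652-5707951, minus strand) a YY1 match just before the end of the window.
Mrps26: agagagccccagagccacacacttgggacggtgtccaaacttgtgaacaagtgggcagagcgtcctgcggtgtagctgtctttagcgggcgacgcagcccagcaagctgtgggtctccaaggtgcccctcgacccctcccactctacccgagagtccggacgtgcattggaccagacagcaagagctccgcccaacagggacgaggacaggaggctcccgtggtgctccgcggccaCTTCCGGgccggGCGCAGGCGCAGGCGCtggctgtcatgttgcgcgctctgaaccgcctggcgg
Mrpl21: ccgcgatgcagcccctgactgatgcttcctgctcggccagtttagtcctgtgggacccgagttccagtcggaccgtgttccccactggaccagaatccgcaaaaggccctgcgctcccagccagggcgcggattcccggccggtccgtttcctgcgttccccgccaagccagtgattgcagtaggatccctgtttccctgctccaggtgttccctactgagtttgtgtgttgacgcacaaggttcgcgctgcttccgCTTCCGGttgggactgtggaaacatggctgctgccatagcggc
Mrps24: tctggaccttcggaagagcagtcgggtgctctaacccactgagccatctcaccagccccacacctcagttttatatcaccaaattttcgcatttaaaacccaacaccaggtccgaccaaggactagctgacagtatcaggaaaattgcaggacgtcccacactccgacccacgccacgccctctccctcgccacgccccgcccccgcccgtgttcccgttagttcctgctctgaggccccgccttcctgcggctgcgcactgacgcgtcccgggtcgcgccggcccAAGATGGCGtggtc

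Across libraries, 1 library set the pattern. The 78 genes together made up 1762, 1788 and 1742 CPM in knockout mTBI libraries, 2346, 1778 and 1775 CPM in injured wild-type libraries and 1764, 1775 and 1794 CPM in the sham-labelled libraries. Wild-type mTBI replicate 1 stood above the other 8 libraries, which lay between 1742 and 1794 CPM. As shares of all counts this was 0.232% in that library and 0.1745% to 0.180% in the others. The mean sum was 1764 ± 23.1 CPM in knockout mTBI libraries, 1966 ± 329 CPM in injured wild-type libraries and 1778 ± 15.2 CPM in the sham-labelled group (SD, n = 3 each), and 1776 CPM in wild-type mTBI without replicate 1.

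**Figure D2:**
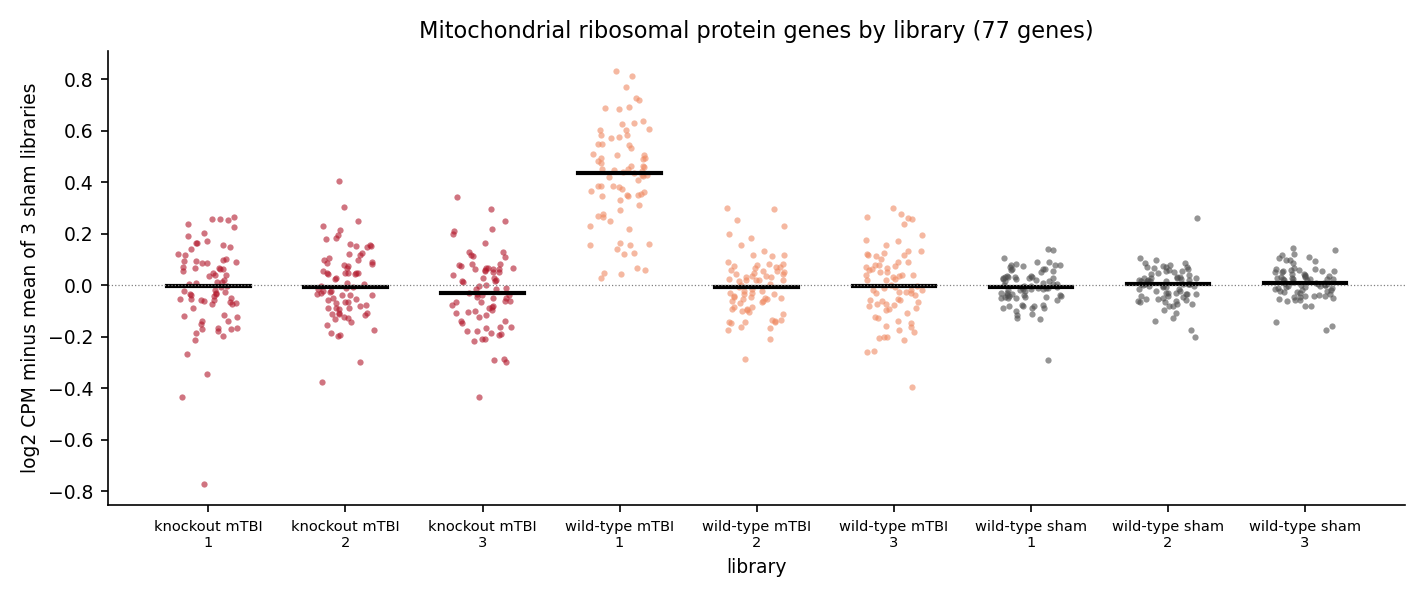
Each point is 1 of 77 genes in 1 library, as log2 CPM minus the mean of the 3 sham-labelled libraries, and black bars are medians. The median of wild-type mTBI replicate 1 stands at 0.43 and those of the other 8 libraries between -0.03 and 0.01.

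The shift in that library ran through the whole group. Relative to the mean of the sham-labelled libraries, the median gene stood at log2 0.43 in wild-type mTBI replicate 1, with a lowest gene at 0.03 and a highest at 0.83, while the median of all 20032 tested genes was 0.03. All 77 genes were above the sham mean there, against 52.7% of all genes, and in the other 5 injured libraries 34 to 38 of the 77 were above it. This library was the highest of the 9 for 74 of the 77 genes (96.1%), against 27.1% of all genes. The exceptions were Mrpl19, highest in knockout mTBI replicate 2, Mrpl40, highest in sham-labelled replicate 1, and Mrps18b, highest in knockout mTBI replicate 3. The library was not chosen by the rule but was singled out from these values, so they describe it and carry no test.

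Genes of both subunits were high in it. Large-subunit genes summed to 1576 CPM and small-subunit genes to 743 CPM in wild-type mTBI replicate 1, against 1161 to 1205 CPM and 560 to 574 CPM in the other libraries. The ratio of large- to small-subunit transcripts was 2.08 ± 0.0315 in knockout mTBI, 2.10 ± 0.0178 in wild-type mTBI and 2.09 ± 0.0267 in sham-labelled libraries (SD, n = 3 each), and these ranges overlapped. The 46 genes classed as having a bacterial counterpart had a median of log2 0.46 above sham in that library. The 30 classed as mitochondria-specific, among which the S18 homologues Mrps18a and Mrps18b were put, had 0.38. Among single genes the largest shifts were those of Mrpl34 (0.83), Mrpl20 (0.81) and Mrpl54 (0.77), and the smallest those of Mrpl19 (0.03), Mrps18b (0.04) and Mrpl40 (0.05).

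The shift was larger for genes with short exon length, in this group and among all genes. The tested members had a median merged exon length of 2533 bases, against 3640 bases over all tested genes, and 52 of the 77 were shorter than that. In wild-type mTBI replicate 1, all genes of 45 to 2033 bases, the shortest of 4 equal bins, had a median of log2 0.22 and those of 5974 to 123179 bases, the longest bin, -0.17. Members in the same bins stood at 0.55 (31 genes) and 0.35 (12 genes), above the median of all genes of like length. In the bins between, of 2034 to 3640 and 3641 to 5973 bases, members stood at 0.36 and 0.39, against 0.17 and 0.03 for all genes. All genes thus fell from bin to bin, whereas members were highest in the shortest bin and did not fall steadily over the longer ones. Rank correlations with length took each gene's deviation from its mean over all libraries, not from the sham mean. Across the 77 genes, which share the library, the correlation was -0.509 in this library, against -0.29 across all genes. It was -0.417 across the members in wild-type mTBI replicate 3, where it was 0.0439 across all genes. The members' median shift from the sham mean was -0.0024 there.

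**Figure D3:**
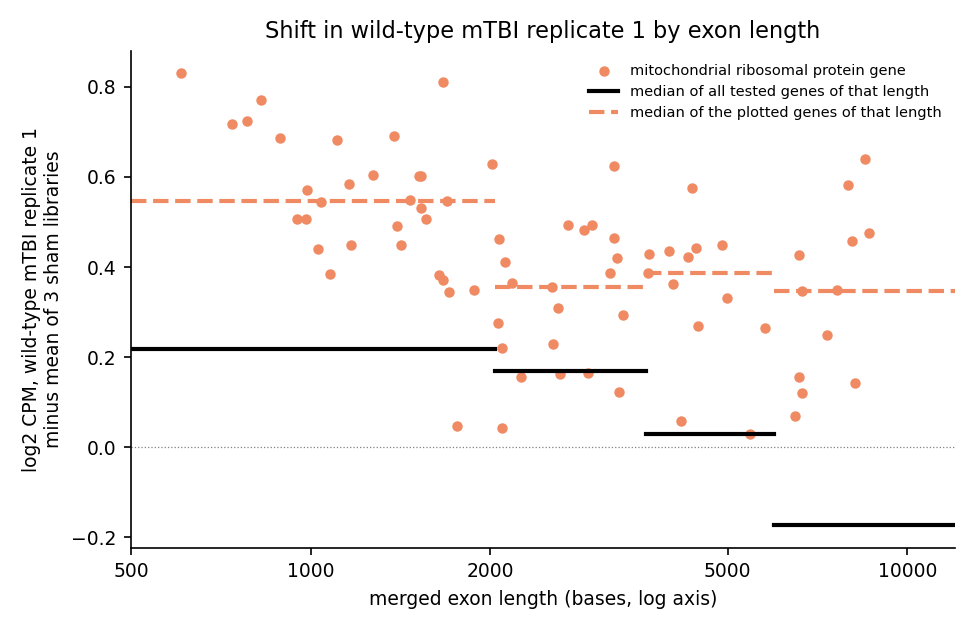
Shift of each tested gene in wild-type mTBI replicate 1, as log2 CPM minus the mean of 3 sham-labelled libraries, against merged exon length in bases on a log axis. Dashed lines are the medians of the plotted genes and black lines those of all tested genes in each of 4 bins of length, 0.55 against 0.22 for the shortest and 0.35 against -0.17 for the longest.

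The same library stood apart in other measures. It had 25981 genes with at least 1 count, against 26413 to 26857 in the others, and the largest coordinate on the first principal component (59.0, against -33.2 to 21.5). The 2 mitochondrial ribosomal RNAs, whose partners these proteins are, summed to 9080 CPM there, against 5256 to 7088 CPM in the others. The 13 mitochondrially encoded mRNAs summed to 47120 CPM, against 36640 to 46290 CPM. Neuronal markers had their lowest sum there, 8582 CPM against 8877 to 10110 CPM, and all 6 of them were detected. The markers of astrocytes (3486 CPM, against 3815 to 4483 CPM), microglia (164 CPM, against 171 to 201 CPM) and endothelial cells (98.5 CPM, against 117 to 145 CPM) also had their lowest sums there. Those of oligodendrocytes (6598 CPM, against 4550 to 8326 CPM) and blood (56.0 CPM, against 30.1 to 144 CPM) lay within the range of the others. Choroid plexus markers were near the sham level in knockout mTBI replicate 1 and high in replicates 2 and 3, whereas the summed level of the ribosomal protein genes was 1762, 1788 and 1742 CPM in these libraries. What part length, RNA quality or cell mixture had in the level of wild-type mTBI replicate 1 was not tested.

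Wild-type mTBI against the sham-labelled libraries, by the labels injury in wild-type mice, was the first comparison. With edgeR's quasi-likelihood test and Benjamini-Hochberg adjustment over 20032 genes, 0 of the 77 genes passed an adjusted p of 0.05 between wild-type mTBI and sham-labelled libraries, where 0.509% of all genes did (102 genes). An unadjusted p under 0.05 was reached by 8 genes, all higher in wild-type mTBI (10.4%, against 7.45% of all genes higher). In either direction it was reached by 13.2% of all genes, a larger share than the 10.4% of the members. DESeq2 and limma voom with quality weights each called 1, Mrpl20 (1.30%), where they called 2.70% and 3.60% of all genes. The change was positive for 69 of the 77 genes and negative for 8, against 53.0% positive over all genes, with a median of log2 0.16 against 0.02. Without wild-type mTBI replicate 1 the median was log2 -0.0028, with 38 genes positive and 39 negative, and the median of all genes was 0.00. The groups did not overlap for 12 genes, all higher in wild-type mTBI (15.6%, against 12.4% of all genes): Mrpl12, Mrpl20, Mrpl21, Mrpl30, Mrpl32, Mrpl48, Mrpl49, Mrpl54, Mrpl58, Mrps15, Mrps23 and Mrps24. None was lower without overlap, against 11.5% of all genes.

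**Figure D4:**
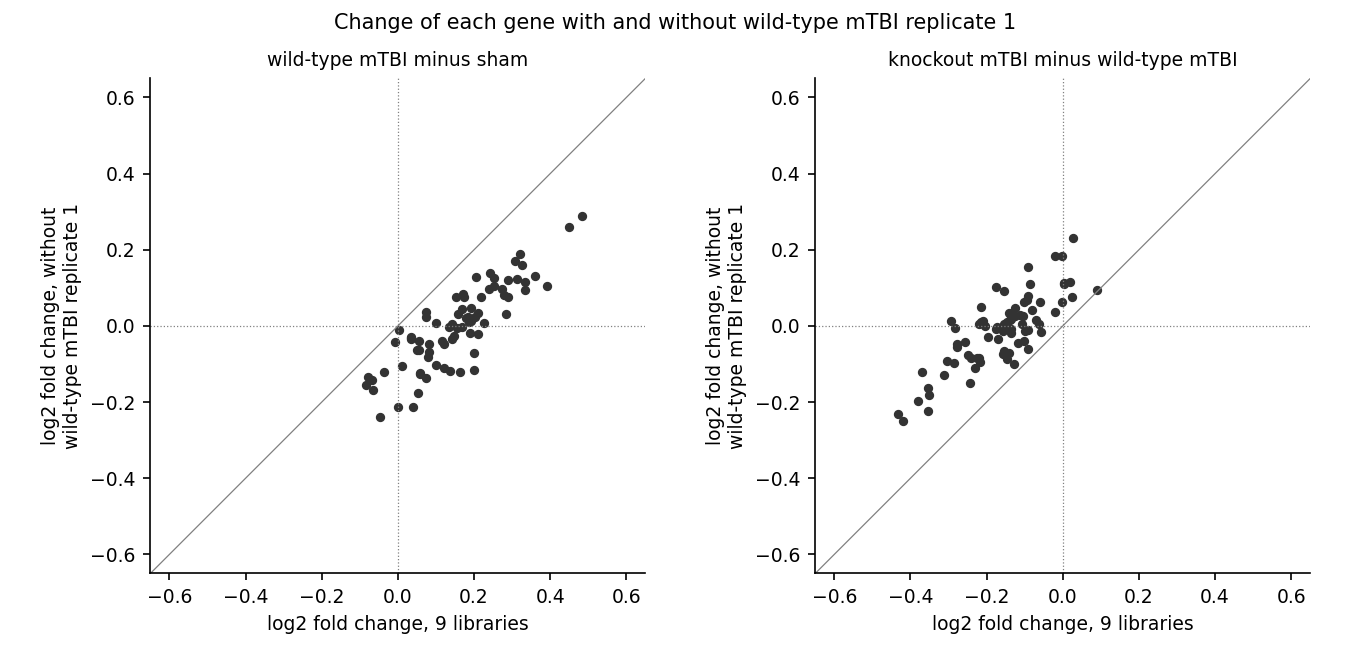
Fitted log2 fold change of each of the 77 genes with all 9 libraries (x axis) and without wild-type mTBI replicate 1 (y axis), for wild-type mTBI minus sham on the left and knockout mTBI minus wild-type mTBI on the right. Points lie off the diagonal on one side in each panel: the median is 0.16 with and -0.0028 without the library on the left, and -0.15 with and -0.0018 without it on the right.

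Mrpl20 had the smallest p of the group in this comparison. It encodes a large-subunit protein whose bacterial counterpart is needed early in subunit assembly, and lies at chr4:155802878-155809975 (GRCm38). It stood at 53.7, 37.6 and 37.1 CPM in wild-type mTBI, against 30.4, 29.6 and 31.8 CPM in sham-labelled libraries. Every injured wild-type library was above every sham-labelled one, with replicate 1 highest. The difference was log2 0.48 (SE 0.13, edgeR adjusted p = 0.156). It was 0.29 without replicate 1 (adjusted p = 0.150). The adjusted p was 0.0368 with DESeq2, 0.0378 with limma voom and 0.0106 with edgeR and no count filter, and it ranged up to 1 with the sham-labelled libraries summed to 1 sample.

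Mrps15 and Mrps24 are small-subunit proteins with bacterial counterparts that contact the small ribosomal RNA. Mrps15 stood at 33.7, 25.0 and 27.7 CPM in wild-type mTBI, against 22.7, 22.9 and 23.5 CPM in sham-labelled libraries, without overlap (log2 0.32, SE 0.11, edgeR adjusted p = 0.245). Mrps24, whose promoter window holds the YY1 letters shown above, stood at 22.5, 16.1 and 18.4 CPM, against 15.7, 15.7 and 14.7 CPM (log2 0.31, SE 0.12, edgeR adjusted p = 0.305). Replicate 1 was the highest library for both, and without it the changes were log2 0.19 for Mrps15 and 0.17 for Mrps24.

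Mrpl54, a large-subunit protein found only in mitochondrial ribosomes, stood at 14.7, 10.1 and 10.6 CPM in wild-type mTBI, against 9.48, 8.79 and 7.62 CPM in sham-labelled libraries (log2 0.45, SE 0.16, edgeR adjusted p = 0.257). Mrpl21 stood at 24.6, 17.2 and 17.4 CPM, against 16.2, 15.0 and 16.4 CPM (log2 0.31, SE 0.13, edgeR adjusted p = 0.350). For these large-subunit genes the injured libraries were also all above the sham-labelled ones. Mrps26, a small-subunit protein with no bacterial counterpart, stood at 52.3, 36.8 and 39.6 CPM, against 37.3, 33.5 and 34.5 CPM, so that replicate 2 overlapped the sham-labelled range (log2 0.29, SE 0.12, edgeR adjusted p = 0.340). The other genes with an unadjusted p under 0.05 were Mrpl17 (log2 0.21) and Mrpl28 (log2 0.33), both of the large subunit, with edgeR adjusted p = 0.376 and 0.361. Without wild-type mTBI replicate 1 the changes were log2 0.26 for Mrpl54, 0.12 for Mrpl21, 0.12 for Mrps26, 0.13 for Mrpl17 and 0.11 for Mrpl28.

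The 6 negative changes of smallest p were small, with edgeR adjusted p from 0.722 to 0.920. Mrpl40 and Mrpl19 stood at log2 -0.08, Mrps17 at -0.07, Mrps31 at -0.06, Mrps34 at -0.05 and Mrpl3 at -0.04. For Mrps17, an RNA-binding protein of the small subunit, the values were 58.0, 52.1 and 48.1 CPM in wild-type mTBI, against 55.2, 56.1 and 54.5 CPM in sham-labelled libraries. Replicate 1 was thus above the sham-labelled libraries even for this gene, and replicates 2 and 3 below.

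The knockout was compared with wild type after the same injury. With edgeR, 0 of the 77 genes passed an adjusted p of 0.05 between knockout mTBI and wild-type mTBI, where 0.015% of all genes did (3 genes), and the lowest adjusted p in the group was 0.732. An unadjusted p under 0.05 was reached by 7 genes, all lower in knockout mTBI (9.09%, against 3.35% of all genes lower). In either direction it was reached by 6.6% of all genes. DESeq2 and limma voom called 0 of the 77 genes, where they called 0.0899% and 0.020% of all genes. The change was positive for 6 genes (7.79%, against 50.2% of all genes) and negative for 71, with a median of log2 -0.15, against 0.00 over all genes. Without wild-type mTBI replicate 1 the median was log2 -0.0018, with 37 genes positive and 40 negative. This comparison and that of injury use the same wild-type mTBI libraries, so a high value in one of them enters both with opposite signs.

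The groups did not overlap for 7 genes lower in knockout mTBI (9.09%, against 4.86% of all genes): Mrpl14, Mrpl20, Mrpl21, Mrpl35, Mrpl48, Mrpl55 and Mrps24. None was higher without overlap, against 4.86% of all genes. Mrps24 had the smallest p, at 14.2, 15.2 and 15.2 CPM in knockout mTBI, against 22.5, 16.1 and 18.4 CPM in wild-type mTBI (log2 -0.35, SE 0.12, edgeR adjusted p = 0.732). The lowest wild-type library was above the highest knockout library by under 1 CPM. Mrpl21 stood at 15.4, 15.3 and 14.7 CPM, against 24.6, 17.2 and 17.4 CPM (log2 -0.38, SE 0.13), and Mrpl20 at 35.2, 30.2 and 35.1 CPM, against 53.7, 37.6 and 37.1 CPM (log2 -0.35, SE 0.13), both with an edgeR adjusted p of 0.732. Without wild-type mTBI replicate 1 the change of Mrps24 was log2 -0.22, that of Mrpl21 -0.20 and that of Mrpl20 -0.16.

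The remaining genes with an unadjusted p under 0.05 included 1 with a low knockout library. Mrpl55, a large-subunit protein, stood at 11.2, 18.2 and 18.1 CPM in knockout mTBI, against 26.1, 18.4 and 19.2 CPM in wild-type mTBI and 18.8, 20.3 and 18.6 CPM in sham-labelled libraries. Its log2 change from wild-type mTBI was -0.42 (SE 0.18, edgeR adjusted p = 0.732), and knockout mTBI replicate 1 alone stood at -0.77 from the sham mean, the lowest value of the 77 tested genes in any library. Mrps6, a small-subunit protein with a bacterial counterpart, stood at 5.91, 8.49 and 5.91 CPM in knockout mTBI, against 11.6, 7.42 and 8.42 CPM in wild-type mTBI (log2 -0.43, SE 0.19, edgeR adjusted p = 0.732). Its groups overlapped through knockout replicate 2. Mrpl14 (log2 -0.35) and Mrps12 (log2 -0.37), which encodes a protein of the decoding centre, had the same adjusted p. Without wild-type mTBI replicate 1 the changes were log2 -0.25 for Mrpl55, -0.23 for Mrps6, -0.18 for Mrpl14 and -0.12 for Mrps12.

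The positive changes in knockout mTBI were those of Mrps18b (log2 0.09), Mrpl19 (0.02), Mrps30 (0.03), Mrps31 (0.02), Mrps27 (0.00) and Mrpl33 (0.00), each smaller than its SE. Mrps27 is an RNA-binding small-subunit protein, and stood at 15.7, 16.4 and 16.8 CPM in knockout mTBI, against 18.8, 15.6 and 14.4 CPM in wild-type mTBI. The wild-type range thus enclosed the knockout range.

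**Figure D5:**
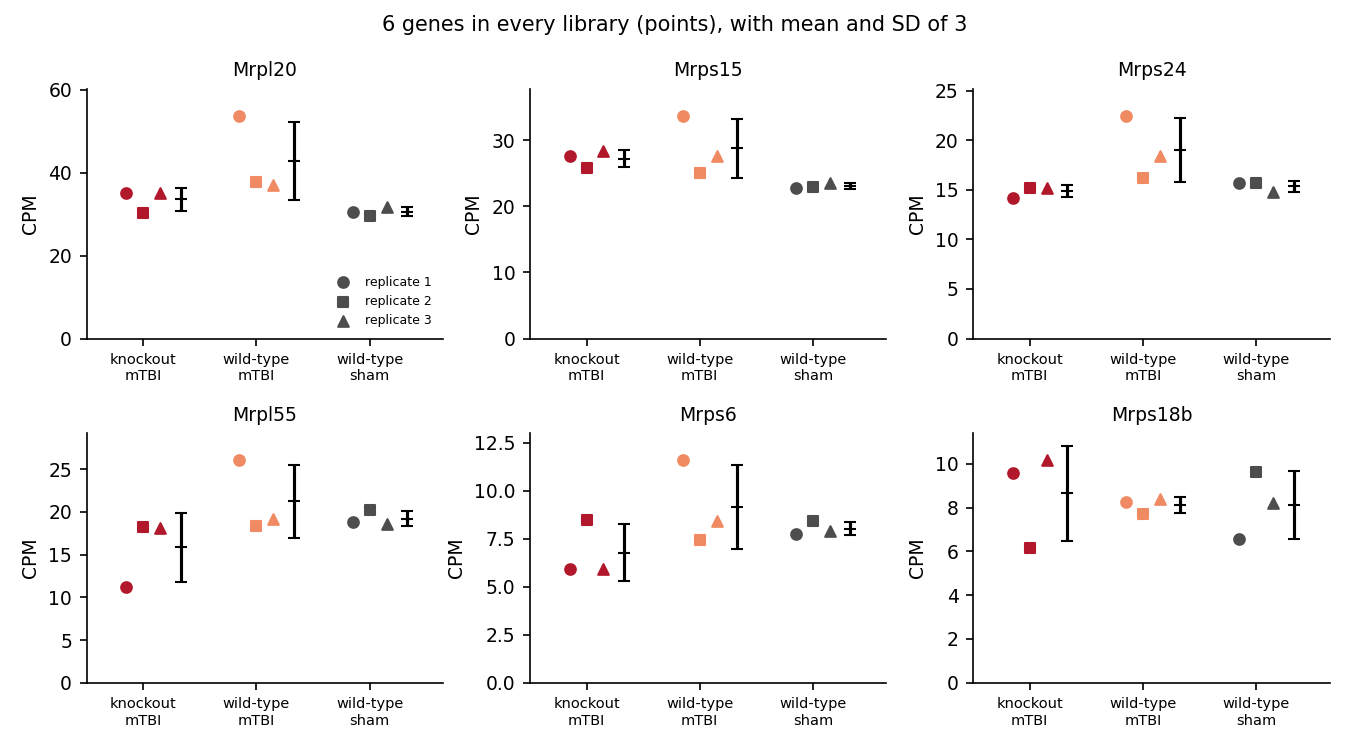
CPM of 6 genes in every library (points, shaped by replicate number), with mean and SD of 3 beside them, for knockout mTBI, wild-type mTBI and sham. Replicate 1 is the highest wild-type mTBI library for Mrpl20, Mrps15, Mrps24, Mrpl55 and Mrps6 but not for Mrps18b, and knockout mTBI replicate 1 is the lowest library for Mrpl55.

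Knockout mTBI was last set against the sham-labelled libraries, in the same fit of 9 libraries. With edgeR, 0 of the 77 genes passed an adjusted p of 0.05, where 0.0699% of all genes did (14 genes), and DESeq2 and limma voom also called 0, where they called 1.13% and 1.39% of all genes. An unadjusted p under 0.05 was reached by 1 gene, Mrps15 (1.30%, against 4.58% of all genes higher). The change was positive for 39 genes (50.6%, against 52.6% of all genes) and negative for 38, with a median of log2 0.00, against 0.01 over all genes. Mrps15 stood at 27.6, 25.8 and 28.3 CPM in knockout mTBI, against 22.7, 22.9 and 23.5 CPM in sham-labelled libraries (log2 0.24, SE 0.11, edgeR adjusted p = 0.687). Its 3 knockout and 3 wild-type mTBI libraries were all above the 3 sham-labelled libraries. In a fit of these 6 libraries alone, edgeR called 70 of all genes and 0 members, with a lowest adjusted p of 0.212 among them.

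The groups of this comparison did not overlap for Mrpl43 and Mrps15, higher in knockout mTBI (2.60%, against 8.75% of all genes), nor for Mrpl3, Mrpl9, Mrpl35, Mrpl55 and Mrps14, lower in knockout mTBI (6.49%, against 8.40% of all genes). Mrpl43 stood at 7.84, 7.26 and 7.06 CPM in knockout mTBI, against 7.01, 6.42 and 6.15 CPM in sham-labelled libraries (log2 0.18, SE 0.15, edgeR adjusted p = 0.984). Mrpl35 stood at 23.9, 23.0 and 21.7 CPM, against 24.9, 25.1 and 25.3 CPM (log2 -0.14, SE 0.08, edgeR adjusted p = 0.841). Mrpl3, the most abundant member by CPM and a large-subunit protein near the peptidyl transferase centre, stood at 53.2, 57.0 and 56.2 CPM, against 59.7, 63.6 and 58.4 CPM (log2 -0.13, SE 0.09, edgeR adjusted p = 0.908). The remaining genes of smallest p were Mrpl17 (log2 0.09), Mrpl20 (0.13), Mrps26 (0.13) and Mrpl54 (0.14) among the positive and Mrps6 (-0.24), Mrps12 (-0.23) and Mrps17 (-0.13) among the negative ones.

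The spread of the members between libraries rested largely on 1 library. The median coefficient of variation over the 9 libraries was 13.1%, against 14.8% over all tested genes, and 6.61% against 11.9% over the 8 libraries without wild-type mTBI replicate 1. Mrpl48 varied least (3.94%), at 49.6, 49.0 and 47.0 CPM in knockout mTBI libraries, 54.2, 51.0 and 49.8 CPM in injured wild-type libraries and 49.3, 48.6 and 49.4 CPM in sham-labelled libraries. Mrps5 (5.03%) and Mrpl35 (5.56%) followed. Mrpl34 varied most (23.6%), at 8.81, 9.72 and 6.86 CPM in knockout mTBI libraries, 14.0, 8.77 and 8.14 CPM in injured wild-type libraries, and 8.15, 7.52 and 7.91 CPM in sham-labelled libraries. It was followed by Mrpl52 (22.6%) and Mrps6 (21.1%). For Mrpl34 and Mrpl52 the highest library was again wild-type mTBI replicate 1.

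Some members have known roles besides the ribosome. Mrpl12 stood at 38.2, 38.4 and 33.5 CPM in knockout mTBI libraries, 56.2, 38.2 and 40.1 CPM in injured wild-type libraries and 36.6, 36.9 and 37.4 CPM in sham-labelled libraries. Its change from sham after injury was log2 0.28 (SE 0.13, edgeR adjusted p = 0.392). Mrpl58, a peptidyl-tRNA hydrolase that rescues stalled ribosomes and is also part of the large subunit, had a change of 0.15 (SE 0.09, edgeR adjusted p = 0.462). Without wild-type mTBI replicate 1 these changes were log2 0.08 for both. Mrps36, the non-ribosomal protein, stood at 17.9, 18.7 and 15.2 CPM in knockout mTBI libraries, 26.4, 15.4 and 16.6 CPM in injured wild-type libraries and 16.8, 16.6 and 18.8 CPM in sham-labelled libraries, and so was also highest in wild-type mTBI replicate 1.

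Members with and without the promoter motifs had like medians. The median in wild-type mTBI replicate 1 was log2 0.43 for the 40 tested genes with at least 1 of the 3 motifs and 0.43 for the 28 whose window lacked these letters. The changes after injury were 0.16 for both.

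Nuclear genes of the pathway on 5 other lists were less high in wild-type mTBI replicate 1. Among transcripts of mitochondrial DNA in that library, the 2 ribosomal RNAs stood above the members, at a median of log2 0.71 from sham. The 13 mRNAs stood below the members, at 0.33. Relative to sham, medians there were log2 0.27 for 5 ribosomal proteins with other names, 0.24 for 26 assembly and rRNA-modifying factors, 0.22 for 14 translation factors, 0.06 for 20 mitochondrial aminoacyl-tRNA synthetases and 0.06 for 16 genes of mitochondrial transcription and biogenesis, against 0.43 for the members. Median exon lengths of these lists were 2494, 3693, 4143, 5173 and 5186 bases, in the same order, against 2533 bases for the members, and the difference between lists was not tested. With edgeR, 0 genes of the 5 lists were called in any comparison. Of all genes, 0.509% were called for wild-type mTBI minus sham, 0.015% for knockout minus wild-type mTBI and 0.0699% for knockout mTBI minus sham.

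The gene of smallest p among them was Esrra, an orphan nuclear receptor that drives genes of oxidative metabolism. It stood at 46.3, 41.6 and 43.1 CPM in knockout mTBI libraries, 49.3, 49.0 and 47.4 CPM in injured wild-type libraries and 40.1, 40.2 and 40.4 CPM in sham-labelled libraries. The 3 groups did not overlap, and wild-type mTBI replicate 1 did not stand apart. The change was log2 0.27 for wild-type mTBI against sham (SE 0.07, edgeR adjusted p = 0.123) and -0.15 for knockout mTBI against wild-type mTBI (SE 0.07, edgeR adjusted p = 0.732). For injury the adjusted p was 0.0366 with DESeq2 and 0.0189 with limma voom, and it ranged up to 1 with the sham-labelled libraries summed to 1 sample.

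Among the ribosomal proteins with other names, Chchd1 stood at 16.1, 15.2 and 15.7 CPM in knockout mTBI, against 24.6, 18.9 and 16.8 CPM in wild-type mTBI (log2 -0.36, SE 0.13, edgeR adjusted p = 0.732). Mterf3, a negative regulator of mitochondrial transcription that also acts in ribosome assembly, stood at 11.1, 10.5 and 13.7 CPM, against 18.1, 15.6 and 13.1 CPM (log2 -0.41, SE 0.14, edgeR adjusted p = 0.732). Tufm, the mitochondrial elongation factor that brings aminoacyl-tRNAs to the ribosome, stood at 61.1, 51.1 and 50.01 CPM in wild-type mTBI, against 47.2, 46.7 and 46.6 CPM in sham-labelled libraries (log2 0.21, SE 0.11, edgeR adjusted p = 0.433). Each of these 3 genes was highest in wild-type mTBI replicate 1.

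The 20 synthetase genes also had their highest sum in that library, 483 CPM against 436 to 474 CPM in the others, but those of smallest p after injury differed in direction. Mars2, which charges the methionine tRNA of mitochondria, stood at 21.7, 24.6 and 20.7 CPM in wild-type mTBI, against 30.4, 28.8 and 27.5 CPM in sham-labelled libraries, lower without overlap (log2 -0.37, SE 0.11, edgeR adjusted p = 0.194). Cars2, the cysteine enzyme, was also lower without overlap (log2 -0.29, edgeR adjusted p = 0.291). Yars2, the tyrosine enzyme, was higher without overlap (log2 0.28, edgeR adjusted p = 0.293). The mitochondrial small ribosomal RNA, mt-Rnr1, stood at 3621, 2546 and 2341 CPM in wild-type mTBI, against 2241, 2215 and 2104 CPM in sham-labelled libraries (log2 0.38, edgeR adjusted p = 0.319), again highest in replicate 1.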

How the data were processed

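Bulk RNA was sequenced in 9 libraries. The authors deposited unnormalized read counts for each Ensembl gene, made with featureCounts 2.0.6 over exons of Ensembl release 98 on GRCm38, per the file headers. The command named no option for read pairs, strand or multi-mapping reads, so mates were counted singly and fragments can give 2 counts (58.7% to 60.3% of nonzero counts were even). HISAT2, SAMtools, FastQC, MultiQC, Trim Galore and mm10 are listed, unversioned, per the submitters' processing notes. Symbols, positions and merged exon lengths came from GENCODE M21 by identifier (55240 of 55421 genes matched).

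Genes were filtered with filterByExpr (20032 left) and tested two-sided with the quasi-likelihood F test of edgeR 4.0.16 (R 4.3.3) over all 9 libraries with TMM factors and 1 shared spread. Adjusted p-values are Benjamini-Hochberg over all genes tested, and a gene was called under 0.05. CPM are scaled by TMM factors. RPKM were used where fragments per kilobase had been planned, because mates were counted singly. P-values measure the spread between libraries, taking each as 1 mouse. The shared spread takes in the sham-labelled libraries, which lay closer to one another than those of the other groups. Alternatives were RLE scaling, totals only, DESeq2 1.42.0, voom with quality weights (limma 3.58.1), no filter (at least 1 count), a stricter filter (50 counts in 3 libraries), 6 libraries only, the replicate number as a block, an offset for exon length, counts divided by 2, the sham libraries summed, and libraries left out. In simulated counts over 20032 genes, the test recovered 34% of 1.5-fold and 81% of 2-fold changes for wild-type mTBI minus sham, 44% and 75% for knockout minus wild-type mTBI, and 45% and 78% for knockout mTBI minus sham. The changed genes had a mean of at least 50 counts. Each gene had the same spread in all groups, unlike in the data, where the sham-labelled libraries were closer.

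Genes named were those of smallest p in each direction and comparison, highest and lowest RPKM, largest and smallest variation, and members set apart by annotation. From each related list, those of smallest p were chosen, of which only examples are printed. Members, lists and settings were chosen with earlier results of these data known.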

Additional observations from a re-analysis of the deposited data

How the results depend on the processing

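No member was called in any comparison under any setting, except Mrpl20 after injury (1 call with DESeq2, with limma voom and with no filter). The median change of the members without 1 library each ran from log2 -0.0028 to 0.23 for wild-type mTBI minus sham, from -0.23 to -0.0018 for knockout minus wild-type mTBI and from -0.019 to 0.013 for knockout mTBI minus sham; the values near 0 of the first 2 are those without wild-type mTBI replicate 1. For knockout mTBI minus sham the median was -0.022 with the length offset and -0.0093 without wild-type and knockout mTBI replicates 1 together. With the length offset the injury median was 0.14, and with voom, which weights libraries by their fit, 0.03. The summed level without 1 library was 1752 to 1775 CPM in knockout mTBI, 1776 to 2062 CPM in wild-type mTBI and 1770 to 1784 CPM in sham.

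Counts over all genes depended more on the setting. For wild-type mTBI minus sham, 102 calls became 541 with DESeq2, 722 with voom, 676 with no filter, 64 with the stricter filter, 252 with 6 libraries, 158 with the length offset, 1 with sham summed, 524 without both replicates 1, and 5 to 251 without 1 library. For knockout minus wild-type mTBI, 3 became 18 with DESeq2, 68 with no filter, 1 with 6 libraries, 1 with sham summed, 23 without both replicates 1, and 2 to 7 without 1 library. For knockout mTBI minus sham, 14 became 226 with DESeq2, 279 with voom, 387 with no filter, 70 with 6 libraries, 0 with sham summed, 338 without both replicates 1, and 2 to 127 without 1 library. The causes were not tested.

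With the replicate number as a block, the counts were 107, 3 and 13 and the members' medians 0.15, -0.14 and 0.00; same-numbered libraries correlated at -0.0887 to 0.0733, so the numbers were not taken as a pairing. Among the named genes, 4157 of 4410 values under the alternatives kept their sign and side of the threshold, 6 gained a call and 247 had the other sign, with 0 of those called; 39 of the 247 were without wild-type mTBI replicate 1. In the simulated counts, which gave all groups the same spread, most 1.5-fold changes were not called with 3 libraries a group. Smaller changes were not simulated.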
